A study of Mus musculus with 9 samples.

Results

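Hepatic glucose production and its control by insulin were followed in mouse liver through 10 genes. They are Pcx, Pck1, Fbp1 and G6pc, which encode enzymes of gluconeogenesis, Ppargc1a and Foxo1, which encode transcriptional regulators of those enzymes, Insr, Irs1 and Irs2, which encode the insulin receptor and its substrates, and Igfbp1, which encodes a secreted binding protein for insulin-like growth factors. The genes were chosen by symbol for their place in the pathway, and all 10 were found among the 23337 genes counted and among the 12587 that passed the filter on low counts. All mice were wild-type (WT). For 12 weeks from 8 weeks of age they were given a normal diet (ND), a 60% high-fat diet (HFD), or that high-fat diet with 0.25% hyodeoxycholic acid (HFD_HDCA), a secondary bile acid. Livers were taken in the fed state, and bulk RNA sequencing was done on 3 livers of each diet. The comparison of HFD with ND asks what differed with the high-fat diet, and that of HFD_HDCA with HFD what differed with the bile acid added to it. Strain and sex were not given in the sources used here, and neither was whether the mice of a diet shared a cage. The p-values measure only the spread between these livers.

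Gluconeogenesis makes glucose from lactate, pyruvate, amino acids and glycerol. Pyruvate carboxylase (Pcx) and the cytosolic phosphoenolpyruvate carboxykinase (Pck1) bring pyruvate back to phosphoenolpyruvate, fructose-1,6-bisphosphatase (Fbp1) acts further up the pathway, and the catalytic subunit of glucose-6-phosphatase (G6pc) releases free glucose. In the fasted liver, glucagon acts through cAMP to raise transcription of Pck1 and G6pc, with PGC-1alpha (Ppargc1a) as a coactivator. After a meal, insulin binds its receptor (Insr), the receptor phosphorylates IRS1 and IRS2, and the kinase AKT then phosphorylates FOXO1, which leaves the nucleus and no longer drives G6pc, Pck1, Igfbp1 and Irs2. Much of this control acts on proteins, so transcript levels show only a share of it.

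The promoters of 5 of the genes are shown as examples that hold, within a short stretch, matches to sequence elements through which insulin and cAMP can act. Ppargc1a also holds such a match and is not shown. RefSeq windows on GRCm38.p6, the assembly of mm10, were matched for 9 of the 10 genes, and Insr had none. Each line gives the 200 bases just before the annotated start, 5′ to 3′ on the gene's own strand, with capitals for CAAAACA (read TGTTTTG on the other strand), the core of the insulin response element that FOXO proteins bind, and for TGACG, which reads CGTCA on the other strand, the core of the cAMP response element. Igfbp1 is at chr11:7197587-7197786 on the plus strand, G6pc at chr11:101367516-101367715 on the plus strand, Irs2 at chr8:11008930-11009129 on the minus strand, Irs1 at chr1:82291440-82291639 on the minus strand and Pck1 at chr2:173152873-173153072 on the plus strand.
Igfbp1: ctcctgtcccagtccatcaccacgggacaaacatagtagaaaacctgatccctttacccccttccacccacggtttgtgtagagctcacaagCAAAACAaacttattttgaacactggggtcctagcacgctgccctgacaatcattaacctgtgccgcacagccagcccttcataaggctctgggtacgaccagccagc
G6pc: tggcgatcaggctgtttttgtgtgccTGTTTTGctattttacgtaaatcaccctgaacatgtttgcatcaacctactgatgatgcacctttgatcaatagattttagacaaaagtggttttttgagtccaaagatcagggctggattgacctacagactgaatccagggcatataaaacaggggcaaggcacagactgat
Irs2: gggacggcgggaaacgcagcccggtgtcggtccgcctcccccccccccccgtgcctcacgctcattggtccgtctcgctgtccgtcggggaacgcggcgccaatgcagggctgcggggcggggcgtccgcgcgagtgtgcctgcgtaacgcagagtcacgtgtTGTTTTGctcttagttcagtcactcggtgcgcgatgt
Irs1: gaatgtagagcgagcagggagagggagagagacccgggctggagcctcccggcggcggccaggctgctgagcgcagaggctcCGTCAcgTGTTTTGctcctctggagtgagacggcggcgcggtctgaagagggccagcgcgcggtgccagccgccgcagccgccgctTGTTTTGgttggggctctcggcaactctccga
Pck1: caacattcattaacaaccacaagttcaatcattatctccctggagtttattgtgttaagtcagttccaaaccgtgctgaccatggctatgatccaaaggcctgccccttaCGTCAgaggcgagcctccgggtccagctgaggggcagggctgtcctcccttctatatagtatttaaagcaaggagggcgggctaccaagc

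Counting bases back from the start, with -1 the last base before it, CAAAACA began at -108 in Igfbp1, -174 in G6pc, -37 in Irs2, and -111 and -32 in Irs1. In the 250 bases before the start it was present in 4 of the 9 matched genes and in 5.56% of all 32851 windows. TGACG was present in 3 of the 9, at -90 in Pck1, -49 in Ppargc1a and -118 in Irs1, and in 17.8% of all windows. The Ppargc1a window (chr5:51567726-51567925, minus strand) lies apart from the span listed with the gene's FPKM values (chr5:51454249-51553921). Its match at -49 belongs to a RefSeq start upstream of that span. The E-box CACGTG, an element bound by clock factors and by SREBP-1c, was present in Irs1 at -115, Irs2 at -44 and Pcx at -248, and in 6.02% of all windows. In Irs1, CACGTG overlaps both TGACG and the first CAAAACA. TTACGTAA, a palindrome bound by PAR-domain bZIP factors such as DBP, was present in G6pc at -162 and in 0.113% of all windows. GTAAACA (3.17% of all windows), TGACGTCA (1.55%), TTATGTAA (0.819%) and the DR1 element (0.0335%) were in none of the 9. Both strands were searched. A match describes the letters only.

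The libraries held 16994353 to 20509203 reads on genes, and a pair of them stood apart from their groups in clock or acute-phase genes. HFD 1 had the clock gene Dbp at 85.8 CPM (counts scaled to the effective library size), against at most 14.6 in the other 8, and Arntl at 4.71 CPM, against at least 17.3. HFD_HDCA 1 had the acute-phase gene Saa1 at 3371 CPM, against at most 74.4 in the other 8. All 10 hepatocyte markers were detected, summing to 99999 to 108974 CPM on ND, 114185 to 138028 on HFD and 117452 to 132096 on HFD_HDCA. Markers of T and NK cells summed to 2.34 to 4.97 CPM over the 9 libraries, those of B cells to 2.02 to 7.45 and those of other tissues to 0.156 to 2.63, with Ins1, Ins2, Prss1, Myh4, Umod and Slc12a1 at 0 in all 9. Macrophage markers (10 of 10 detected) summed to 460.4 to 552 CPM on ND, 168 to 1068 on HFD and 428 to 805 on HFD_HDCA. HFD 2 stood apart in marker sums. Its macrophage sum was 168 CPM, against at least 428 in the other 8, and its endothelial sum 209 CPM, against at least 311. It also held the 2.63 CPM for other tissues, against at most 0.379 in the other 8. In bulk tissue, fewer cells of a type and less RNA per cell cannot be told apart.

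Per unit of transcript length, the enzyme genes stood far above the signalling genes. In FPKM, a unit that divides fragments by transcript length and library size, Pck1 averaged 739 ± 274, Fbp1 642 ± 155, G6pc 233 ± 68.1 and Pcx 118 ± 34.9 (SD, n = 9 libraries of all diets). Igfbp1 averaged 45.9 ± 22.9 FPKM. Below these came Insr at 10.3 ± 1.33, Foxo1 at 5.30 ± 1.33, Irs2 at 3.07 ± 1.46, Irs1 at 2.39 ± 0.443 and Ppargc1a at 1.05 ± 0.337 FPKM. The ranges of neighbours in this order did not overlap between Fbp1 (lowest library 468) and G6pc (highest 401), nor between Insr (lowest 7.70) and Foxo1 (highest 7.32), and all other neighbours overlapped. Pck1 was above Fbp1 in 6 of the 9 libraries, and Irs2 above Irs1 in 6 of 9.

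**Figure D1:**
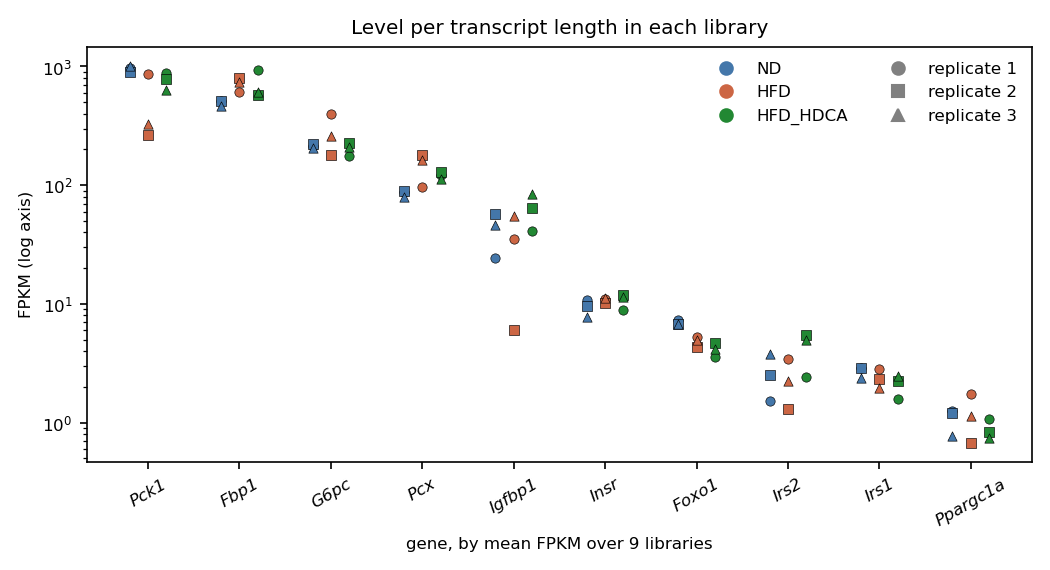
FPKM of each gene (log axis) in every library, with genes ordered by their mean over 9 libraries, colours for diet and symbols for replicate number. Pck1 and Fbp1 reach 1012 and 939 FPKM and Ppargc1a stays at or under 1.74, while Igfbp1 spans 6.03 to 83.5.

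Few of the 10 genes differed between diets. Foxo1 was lower on HFD than on ND and no other member passed the test, so 1 of 10 was called, where 0.953% of all genes tested were called, 0.477% in each direction. Between HFD_HDCA and HFD, 0 of 10 passed in edgeR's quasi-likelihood test, where 3.40% of all genes did (1.67% higher and 1.73% lower). In that comparison, 1 member (Irs2) had an unadjusted p under 0.05, against 22.0% of all genes, and DESeq2 and limma on log2 FPKM also called 0. Between HFD_HDCA and ND, Foxo1 was again lower and was the 1 member called, where 6.47% of all genes were called (3.65% higher and 2.82% lower). An unadjusted p under 0.05 was reached by 3 members between HFD and ND (Foxo1, Pcx and Pck1) and by 3 between HFD_HDCA and ND (Foxo1, Fbp1 and Pcx), where 11.5 and 26.1% of all genes reached it. Each comparison had 5 members with a positive and 5 with a negative estimate. The members' median log2 fold change was -0.14, 0.01 and 0.06 in the order HFD against ND, HFD_HDCA against HFD and HFD_HDCA against ND, beside 0.02, -0.00 and 0.03 over all genes tested. The 3 comparisons share libraries, ND in the first and last and HFD in the first and second, so they are not independent of one another.

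Counting members whose 3 libraries lay wholly above or below the 3 of the other group gave 4 of 10 between HFD and ND (Fbp1 and Pcx higher, Pck1 and Foxo1 lower), where 20.1% of all genes were separated in this way. It gave 0 of 10 between HFD_HDCA and HFD, where the share of all genes was 22.4%. It gave 3 of 10 between HFD_HDCA and ND (Fbp1 and Pcx higher, Foxo1 lower), a share close to the 33.9% of all genes.

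**Figure D2:**
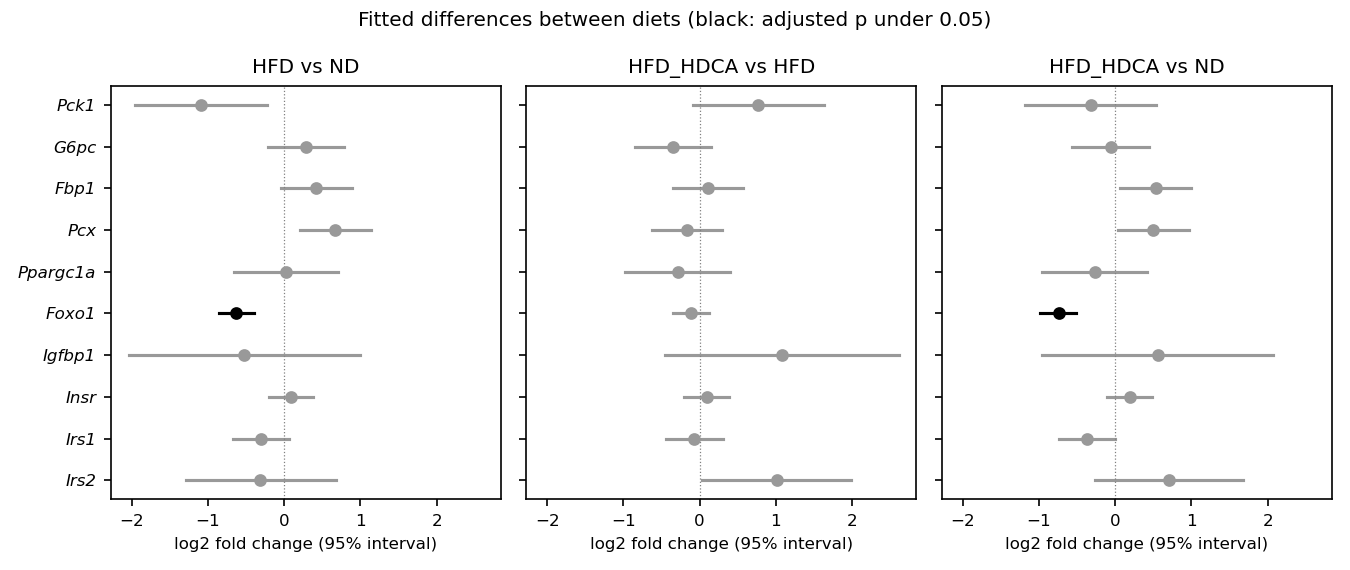
Fitted log2 fold change (point) and 95% interval (line) of each gene in the 3 comparisons, from edgeR's quasi-likelihood fit over all 9 libraries, with black for an adjusted p under 0.05. Foxo1 is black in the first panel (-0.63) and the last (-0.74), and the widest intervals belong to Igfbp1.

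Pyruvate carboxylase was higher on the high-fat diets in every library, by margins that did not pass the test. Pcx (chr19:4510472-4621752, mm10) stood at 494, 496 and 465 CPM on ND, 499, 985 and 838 on HFD, and 717, 709 and 639 on HFD_HDCA. The lowest HFD library, HFD 1, was only just above the highest ND library, while the other 2 HFD livers and all 3 HFD_HDCA livers were clear of it. Between HFD and ND the log2 fold change was 0.67 ± 0.21 (SE, edgeR adjusted p = 0.218). Between HFD_HDCA and ND it was 0.50 ± 0.21 (adjusted p = 0.157), and between HFD_HDCA and HFD -0.17 ± 0.21 (adjusted p = 0.670). Without HFD 1, Pcx passed against ND on HFD (0.91 ± 0.13, edgeR adjusted p = 0.0102) and on HFD_HDCA (0.50, adjusted p = 0.0301), in a fit where 1.77 and 8.02% of all genes passed. For both differences this was the 1 fit that passed of the 9 that left out 1 library, and it kept only HFD 2 and HFD 3 on HFD. Lrfn4, on the opposite strand, overlaps Pcx in the reference annotation, and the strand setting of the counts was not stated, so reads of the overlap could not be assigned with certainty.

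Phosphoenolpyruvate carboxykinase was lower on HFD than on ND in every library, but its wide spread between HFD livers kept it from passing the test. Pck1 (chr2:173153073-173159253) stood at 3407, 3057 and 3635 CPM on ND, 2784, 889.9 and 1063 on HFD, and 3224, 2635 and 2218 on HFD_HDCA. All 3 HFD livers lay below all 3 ND livers, but HFD 1 reached the HFD_HDCA range, and 2 of the 3 HFD_HDCA livers lay below the ND range. The group means were 3366 ± 291, 1579 ± 1047 and 2692 ± 505 CPM (SD, n = 3 each). The log2 fold change was -1.09 ± 0.38 between HFD and ND (unadjusted p = 0.0185, edgeR adjusted p = 0.300), 0.77 ± 0.38 between HFD_HDCA and HFD (adjusted p = 0.273) and -0.32 ± 0.38 between HFD_HDCA and ND (adjusted p = 0.621).

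The Pck1 comparisons turned on HFD 1, which held 2.85 times the mean of HFD 2 and HFD 3 (976 CPM). Without it, Pck1 was lower on HFD than on ND by a log2 fold change of -1.79 ± 0.19 (edgeR adjusted p = 0.00289) and higher on HFD_HDCA than on HFD by 1.46 ± 0.19 (adjusted p = 0.00465), in a fit where 1.77 and 5.26% of all genes passed. In each comparison this was the 1 fit that passed of the 9 that left out 1 library (highest edgeR adjusted p 0.562 and 0.532). It kept only HFD 2 and HFD 3 on that diet. Leaving out the HFD liver furthest from the others by itself widens the difference and narrows the spread. HFD 1 is also the library with high Dbp and low Arntl. Its Per1, another clock gene, was 55.9 CPM where the other HFD livers had 6.41 and 4.69, its 14 clock genes summed to 780.0 CPM against 379.9 and 363, and its macrophage marker sum was 536 CPM against 168 and 1068. The part of these differences in the Pck1 values was not tested. Pck1 is itself a periportal gene, and the other 9 periportal markers summed to 5038, 3975 and 4981 CPM on ND, 3882, 3398 and 3145 on HFD, and 4588, 3214 and 2801 on HFD_HDCA. These sums were lower in all 3 HFD livers than in the ND livers, and 0 of the 10 periportal markers passed between HFD and ND in edgeR. Of all genes, 0.953% passed there. Of these 10, 4 had an unadjusted p under 0.05, against 11.5% of all genes. DESeq2 called 1 of the 10 higher and 1 lower, and limma on log2 FPKM 1 higher. Their part in the Pck1 values was not tested.

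**Figure D3:**
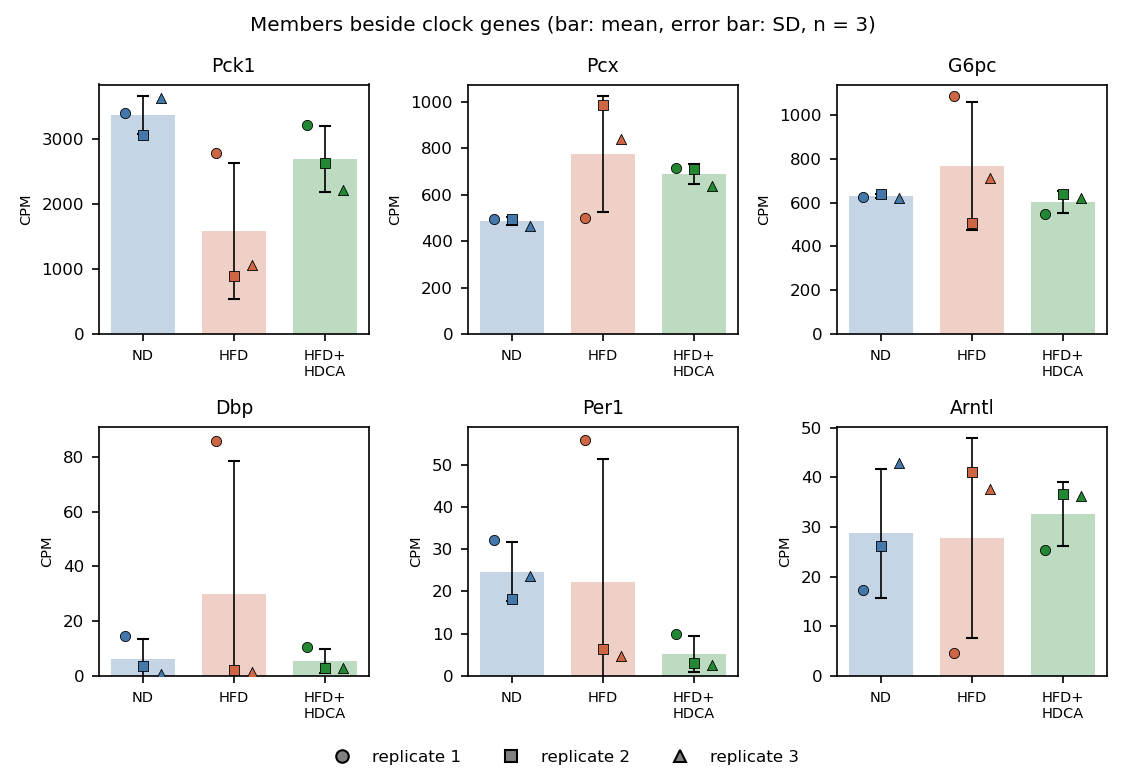
CPM of Pck1, Pcx and G6pc (top row) and of the clock genes Dbp, Per1 and Arntl (bottom row) in every library, with bars for the mean and error bars for the SD (n = 3). HFD replicate 1 (circle) is the highest HFD library for Pck1, G6pc, Dbp and Per1 and the lowest for Pcx and Arntl.

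The ratio of the first enzyme to the next set HFD 1 apart again. Pcx over Pck1, in FPKM, was 0.0897, 0.10 and 0.0787 on ND, 0.111, 0.682 and 0.494 on HFD, and 0.137, 0.166 and 0.177 on HFD_HDCA. The 3 HFD_HDCA livers lay above the ND livers and between HFD 1 and the other 2 HFD livers.

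Fructose-1,6-bisphosphatase also had higher values in every library of the high-fat diets, without passing the test. Fbp1 (chr13:62864753-62888236) stood at 933, 917 and 878 CPM on ND, 1017, 1403 and 1243 on HFD, and 1803, 1018 and 1128 on HFD_HDCA. Every liver on a high-fat diet was above every ND liver, and the highest was HFD_HDCA 1, the library with high Saa1, whose 10 acute-phase markers summed to 32272 CPM against at most 11453 in the other 8. The part of that difference in its Fbp1 value was not tested. The log2 fold change was 0.42 ± 0.21 between HFD and ND (edgeR adjusted p = 0.498), 0.53 ± 0.21 between HFD_HDCA and ND (unadjusted p = 0.0279, adjusted p = 0.141) and 0.11 ± 0.21 between HFD_HDCA and HFD (adjusted p = 0.799). With HFD 1 and HFD_HDCA 1 both left out, the difference between HFD and ND passed (0.52, adjusted p = 0.0284), while that between HFD_HDCA and ND was 0.24 (adjusted p = 0.201).

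Glucose-6-phosphatase was the most even of the enzyme genes on ND. G6pc (chr11:101367730-101377903) stood at 628, 640.0 and 622 CPM on ND, a coefficient of variation of 1.43%, at 548, 641 and 623 on HFD_HDCA, and at 1086, 509 and 715 on HFD. The HFD livers lay on either side of the other 6, with HFD 1 and HFD 3 above all of them and HFD 2 below. The log2 fold change was 0.29 ± 0.22 between HFD and ND (95% interval -0.21 to 0.79, edgeR adjusted p = 0.691), -0.35 ± 0.22 between HFD_HDCA and HFD (-0.85 to 0.15, adjusted p = 0.389) and -0.06 ± 0.22 between HFD_HDCA and ND (-0.56 to 0.44, adjusted p = 0.887). Without HFD 1, the estimates against ND and against HFD_HDCA came to -0.04 and -0.02.

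**Figure D4:**
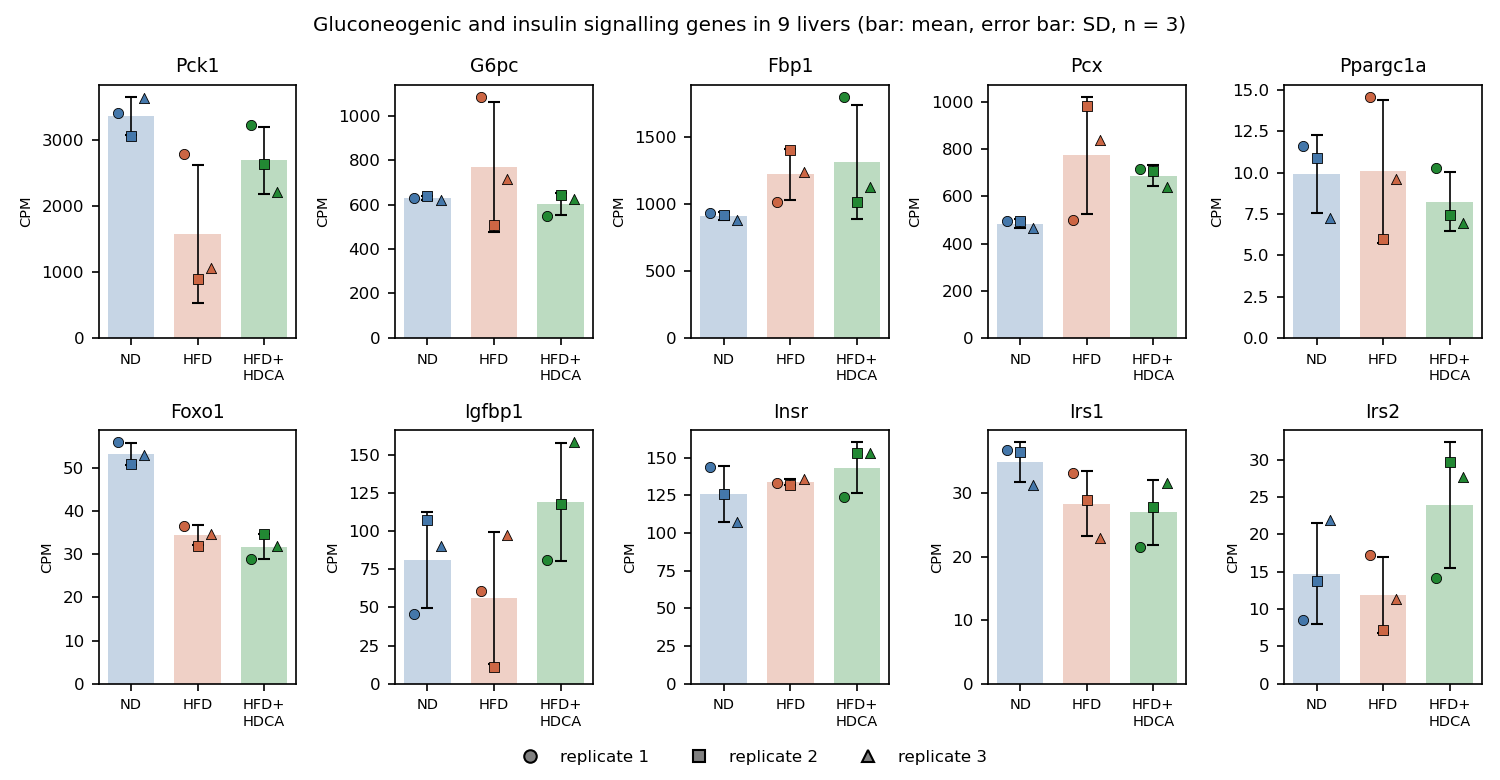
CPM of the 10 genes in every library (points, with symbols for replicate number), with bars for the mean and error bars for the SD (n = 3 per diet). The 3 Foxo1 values on ND (51.0 to 55.9) lie above all 6 values on the high-fat diets (28.9 to 36.6), and the Pck1 and G6pc values of the HFD group are spread widely.

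Foxo1, which encodes the transcription factor that insulin restrains, was the member that changed. Foxo1 (chr3:52268337-52350109) stood at 55.9, 51.0 and 52.9 CPM on ND, 36.6, 32.0 and 34.6 on HFD, and 28.9, 34.6 and 31.9 on HFD_HDCA. The lowest ND liver was above the highest liver of either high-fat group, and the 2 high-fat groups overlapped. Foxo1 fell 1.55-fold on HFD (log2 fold change -0.63 ± 0.10, edgeR adjusted p = 0.0232) and was 1.67-fold lower on HFD_HDCA than on ND (-0.74 ± 0.10, adjusted p = 0.00421). The call on HFD was lost on each of the 3 FPKM scales (limma adjusted p from 0.0822 to 0.108) and with the replicate number as a block (edgeR adjusted p = 0.0569). Between HFD_HDCA and HFD the difference was -0.11 ± 0.10 (95% interval -0.35 to 0.12, adjusted p = 0.560). Gm20402 on the opposite strand and Gm38034 on the same strand overlap Foxo1 in the reference annotation and were not among the genes counted. Their reads could not be told from those of Foxo1 with certainty. Genes that were not counted also overlap Ppargc1a, Irs1 and Insr, with the same limit.

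The comparison of HFD_HDCA with ND passed in all 9 fits that left out 1 library (edgeR adjusted p from 0.00433 to 0.0293). That of HFD with ND passed in 4 of 9 (0.0142 to 0.104) and was lost without any 1 of the ND livers, HFD 2 or HFD 3, with the log2 fold change between -0.58 and -0.66 in those 5 fits. Of the genes compared with Foxo1 for likeness over the 9 libraries (8900 with a mean of at least 5 CPM), the 3 with the highest Pearson r of log2 CPM were Rnf169 (0.979), Ankrd33b (0.971) and Myo6 (0.964). The points share their diets, and r is given as a description. Rnf169, for example, stood at 61.5, 65.3 and 58.8 CPM on ND, 41.1, 32.0 and 37.5 on HFD, and 28.2, 34.5 and 35.6 on HFD_HDCA.

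The coactivator gene Ppargc1a was low in every liver. Ppargc1a (chr5:51454249-51553921) stood at 11.6, 10.9 and 7.23 CPM on ND, 14.6, 6.01 and 9.64 on HFD, and 10.3, 7.44 and 6.98 on HFD_HDCA, from 116 to 270 counted reads. The groups overlapped fully. No comparison passed, with a log2 fold change of 0.02 between HFD and ND (95% interval -0.66 to 0.70), -0.29 between HFD_HDCA and HFD (-0.98 to 0.40) and -0.27 between HFD_HDCA and ND (-0.96 to 0.42).

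The insulin receptor gene varied little between diets. Insr (chr8:3150922-3279617) stood at 144, 126 and 107 CPM on ND, 133, 132 and 136 on HFD, and 124, 153 and 153 on HFD_HDCA. The HFD livers lay within the ND range. Its intervals were the narrowest after those of Foxo1, with log2 fold changes of 0.09 (-0.20 to 0.38) between HFD and ND, 0.10 (-0.20 to 0.39) between HFD_HDCA and HFD, and 0.19 (-0.11 to 0.48) between HFD_HDCA and ND, so differences much beyond these bounds were not seen at this depth and number of livers.

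The receptor substrates differed in how much they varied. Irs1 (chr1:82233105-82291439) stood at 36.8, 36.4 and 31.2 CPM on ND, 33.1, 28.9 and 22.9 on HFD, and 21.5, 27.8 and 31.6 on HFD_HDCA, with 2 of 3 livers in each high-fat group below the ND range. Its log2 fold change was -0.30 ± 0.17 between HFD and ND (edgeR adjusted p = 0.557) and -0.37 ± 0.17 between HFD_HDCA and ND (adjusted p = 0.195).

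Irs2 had its highest values on HFD_HDCA, without passing the test. Irs2 (chr8:10986964-11008430) stood at 8.54, 13.8 and 21.9 CPM on ND, 17.2, 7.17 and 11.3 on HFD, and 14.2, 29.7 and 27.7 on HFD_HDCA. HFD_HDCA 2 and 3 were above all other livers, and HFD_HDCA 1 lay inside the range of both other groups. The log2 fold change between HFD_HDCA and HFD was 1.01 ± 0.43 (95% interval 0.03 to 1.99, unadjusted p = 0.0452, edgeR adjusted p = 0.218). It was -0.31 ± 0.43 between HFD and ND (adjusted p = 0.848) and 0.70 ± 0.43 between HFD_HDCA and ND (adjusted p = 0.328). Irs2 over Irs1, in FPKM, was 0.528, 0.870 and 1.61 on ND, 1.20, 0.563 and 1.15 on HFD, and 1.52, 2.46 and 2.02 on HFD_HDCA. All 3 HFD_HDCA livers had more Irs2 than Irs1 and lay above the 3 HFD livers, while ND 3 was inside their range. 9530052E02Rik overlaps Irs2 on the opposite strand, so its reads could not be told from those of Irs2 with certainty.

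Igfbp1, a secreted protein whose gene insulin represses, varied most. Igfbp1 (chr11:7197787-7202546) stood at 46.0, 107 and 89.9 CPM on ND, 60.7, 11.2 and 97.3 on HFD, and 80.9, 118 and 158 on HFD_HDCA. HFD 2 was the lowest of all 9 livers and HFD_HDCA 3 the highest, and the groups overlapped. Within HFD the highest liver held 8.67 times the lowest. The log2 fold change was -0.52 ± 0.66 between HFD and ND (edgeR adjusted p = 0.829), 1.08 ± 0.66 between HFD_HDCA and HFD (95% interval -0.45 to 2.61, adjusted p = 0.382) and 0.56 ± 0.66 between HFD_HDCA and ND (adjusted p = 0.625).

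Within the HFD group, single livers took the extremes of most members. HFD 1 was the highest of the 3 for 6 of the 10 (G6pc, Pck1, Ppargc1a, Foxo1, Irs1 and Irs2) and the lowest for Fbp1 and Pcx. HFD 2 was the lowest for 7 (G6pc, Pck1, Ppargc1a, Foxo1, Irs2, Insr and Igfbp1) and the highest for Fbp1 and Pcx. Within HFD_HDCA, replicate 1 was the lowest for 6 and the highest for the other 4 (Pck1, Fbp1, Pcx and Ppargc1a).

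Other genes of the pathway were described by list. Of 28 genes tested for gluconeogenic enzymes and substrate entry, 0 passed between HFD and ND in edgeR, where 0.953% of all genes did. An unadjusted p under 0.05 was reached by 8 of the 28, against 11.5% of all genes. Their median log2 fold change was 0.19 beside 0.02 over all genes. DESeq2 called 4 of them higher on HFD (Ldha, Gyk and Brp44l among them), and limma on log2 FPKM 3, or 1 with a looser filter (FPKM above 0 in 3 libraries). Ldha, a gene of lactate dehydrogenase, stood at 685 ± 55.7 CPM on ND and 1063 ± 182 on HFD (edgeR adjusted p = 0.0908, DESeq2 0.00351, limma on log2(FPKM + 1) 0.0416). Without HFD 1, 5 rose (Gapdh, Gyk, Ldha and Pcx among them) and 1 fell (Pck1). Between HFD_HDCA and HFD, 1 rose and 1 fell, where 1.67% of all genes rose and 1.73% fell. The median was -0.05 beside -0.00. Slc2a2, the gene of the glucose transporter GLUT2, fell from 309 ± 34.4 to 151 ± 19.2 CPM (-1.03 ± 0.17, adjusted p = 0.0140). Brp44, now named Mpc2, a subunit of the mitochondrial pyruvate carrier, rose from 189 ± 22.3 to 304 ± 58.7 CPM (0.68 ± 0.16, adjusted p = 0.0436). This rise of Brp44 passed in 2 of the 9 fits that left out 1 library, and limma on log2(FPKM + 1) gave an adjusted p of 0.0681. Without HFD 1, 2 rose and 2 fell, Pck1 among the first and Gapdh among the second, and without HFD_HDCA 1, 0 rose and 1 fell.

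Between HFD_HDCA and ND, 4 of these 28 rose and 0 fell in edgeR, where 3.65% of all genes rose and 2.82% fell. The median was 0.00 beside 0.03. DESeq2 called 7 higher, and limma on log2 FPKM 4, or 3 with the looser filter. Each of these tools called 1 lower (Mdh1, a malate dehydrogenase gene). All 4 that rose in edgeR act where substrates enter the pathway. Gyk, the glycerol kinase gene now named Gk, rose from 118 ± 14.6 to 262 ± 29.0 CPM (edgeR adjusted p = 0.00421), and lactate dehydrogenase A (Ldha) from 685 ± 55.7 to 1390.0 ± 127 CPM (adjusted p = 0.00519). Brp44 rose as well (adjusted p = 0.0119), as did its partner subunit Brp44l, now Mpc1 (61.2 ± 6.17 to 88.7 ± 9.52 CPM, adjusted p = 0.0448). Gyk and Ldha passed in all 9 fits that left out 1 library, Brp44 in 7 and Brp44l in 4. Without HFD_HDCA 1, 3 rose and 2 fell, and without HFD 1, 6 rose, with Pcx and the monocarboxylate transporter gene Slc16a1 added.

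Regulators of these enzymes had mostly negative estimates. Of 27 tested, Foxo1 was the 1 that fell between HFD and ND (18 negative, median -0.07), 0 passed between HFD_HDCA and HFD (20 negative, median -0.17, smallest p for Foxo3, edgeR adjusted p = 0.137), and 3 fell between HFD_HDCA and ND (23 negative, median -0.27). Of all genes, 0.477% fell in the first comparison, 3.40% passed in the second and 2.82% fell in the third. Where 0 passed, 6 of the 27 had an unadjusted p under 0.05, against 22.0% of all genes. There DESeq2 called 1 lower (Onecut1, a hepatocyte transcription factor gene, adjusted p = 0.0443) and limma on log2 FPKM 0. The 3 that fell were Foxo1, Crebbp, the gene of the acetyltransferase CBP (19.1 ± 2.74 to 11.4 ± 2.35 CPM, adjusted p = 0.0279), and Hnf4a, a nuclear receptor of hepatocyte genes (746 ± 35.2 to 535 ± 54.5 CPM, adjusted p = 0.0431). Between HFD_HDCA and ND, Crebbp passed in 5 of the 9 fits that left out 1 library and Hnf4a in 2. There limma on log2(FPKM + 1) gave adjusted p-values of 0.0733 for Crebbp and 0.0457 for Hnf4a. Without HFD_HDCA 1, 1 of the 27 fell in that comparison. Without HFD 1, 3 fell and 2 rose, 2 fell and 1 rose, and 6 fell and 1 rose in the same order of comparisons.

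Of 16 genes of glucagon and cAMP signalling, 0 passed between HFD and ND in edgeR (median -0.03, smallest p for Pde4b, adjusted p = 0.161), 0 between HFD_HDCA and HFD (-0.10), and between HFD_HDCA and ND 1 fell (-0.11). In the first 2 comparisons 2 and 4 of them had an unadjusted p under 0.05, against 11.5 and 22.0% of all genes. Of all genes, 0.953 and 3.40% passed there, and 2.82% fell between HFD_HDCA and ND. DESeq2 called Pde4b, a cAMP phosphodiesterase gene, higher on HFD than on ND (adjusted p = 0.0305), where limma on log2 FPKM called 0. For HFD_HDCA against HFD, DESeq2 called Pde4b (adjusted p = 0.00299) and Prkar2a (0.0416) lower, and limma on log2(FPKM + 1) called both too (0.0442 and 0.0425), but 0 with the looser filter. The 1 that fell in edgeR was Prkar2a, a regulatory subunit of protein kinase A (101 ± 5.33 to 71.2 ± 4.31 CPM, edgeR adjusted p = 0.0357). This fall passed in 4 of the 9 fits that left out 1 library. Without HFD 1, 2 fell between HFD_HDCA and HFD (Prkaca and Prkar2a), and between HFD_HDCA and ND 2 fell (Adcy9 and Prkar2a) and 1 rose (Gcgr, the glucagon receptor gene). Without HFD_HDCA 1, these counts were 1 lower and 0.

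Downstream of the receptor, 1 gene passed the test. Among 27 genes of the insulin signalling core, 0 passed between HFD and ND in edgeR (median -0.06, 1 with an unadjusted p under 0.05), and Pik3r1 was the 1 that fell in each of the HFD_HDCA comparisons (medians -0.06 against HFD and -0.20 against ND). Of all genes, 0.953% passed between HFD and ND and 11.5% had an unadjusted p under 0.05 there. In the HFD_HDCA comparisons, 1.73% of all genes fell against HFD and 2.82% against ND. Pik3r1 encodes the p85alpha regulatory subunit of phosphoinositide 3-kinase, which binds the phosphorylated receptor substrates. It stood at 64.6, 62.8 and 67.8 CPM on ND, 88.2, 111 and 96.8 on HFD, and 36.1, 48.3 and 42.2 on HFD_HDCA, so the 3 groups did not overlap. The log2 fold change was -1.22 ± 0.13 against HFD (edgeR adjusted p = 0.00283), -0.62 ± 0.13 against ND (adjusted p = 0.0208) and 0.60 between HFD and ND (adjusted p = 0.0662). Between HFD and ND, DESeq2 (adjusted p = 0.00568) and limma on each FPKM scale (0.0295 to 0.0469) called Pik3r1 higher. Without HFD 1 that difference passed in edgeR as well (0.67 ± 0.14, adjusted p = 0.0408). Of the 9 fits that left out 1 library, Pik3r1 passed in 9 between HFD_HDCA and HFD, 5 between HFD_HDCA and ND and 3 between HFD and ND.

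Of 20 inhibitors of insulin signalling, 1 rose between HFD and ND, 0 passed between HFD_HDCA and HFD (smallest p for Ikbkb, edgeR adjusted p = 0.0592), and 1 fell between HFD_HDCA and ND, with medians of 0.02, -0.05 and 0.00. Of all genes, 0.477% rose in the first comparison, 3.40% passed in the second and 2.82% fell in the third. Where 0 passed, 5 of the 20 had an unadjusted p under 0.05, against 22.0% of all genes. There DESeq2 called Ikbkb, a kinase gene of the NF-kappaB pathway, lower (adjusted p = 0.00981), as did limma on each FPKM scale (0.0220 to 0.0271), and DESeq2 called Socs3 (0.0180) and Trib3 (0.0208) higher. Enpp1, the gene of an ectonucleotidase that can inhibit the insulin receptor, rose from 17.7 ± 2.15 to 27.3 ± 1.52 CPM on HFD (edgeR adjusted p = 0.0317). Grb14, an adaptor that binds and inhibits the receptor, fell from 72.2 ± 1.85 CPM on ND to 53.6 ± 3.26 on HFD_HDCA (adjusted p = 0.0457). Enpp1 passed in 2 of the 9 fits that left out 1 library, which do not include the fit without HFD 1, and Grb14 in 3, which do not include the fit without HFD_HDCA 1. Without HFD 1, Trib3, a pseudokinase that binds AKT, rose between HFD_HDCA and HFD (1.37 ± 0.21, adjusted p = 0.00985).

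Genes that FOXO1 is known to drive formed a further list. Of 20 such genes, 6 of them members of the set above, 1 rose between HFD and ND (Gadd45a). Between HFD_HDCA and HFD 1 rose (Ccng2), and between HFD_HDCA and ND both rose. The shares of all genes called higher were 0.477, 1.67 and 3.65% in that order. An unadjusted p under 0.05 was reached by 7, 7 and 8 of the 20, against 11.5, 22.0 and 26.1% of all genes. The medians were -0.03, 0.25 and 0.21. In edgeR 0 fell. DESeq2 called 1, 3 and 2 higher in the same order of comparisons, Pnpla2 among the 3 (adjusted p = 0.00943). It called 1 lower, which was Klf15 on HFD_HDCA against ND (adjusted p = 0.0026). Ccng2, which encodes cyclin G2, stood at 16.8, 23.7 and 25.8 CPM on ND, 12.2, 15.7 and 18.6 on HFD, and 33.7, 36.2 and 41.9 on HFD_HDCA. The HFD_HDCA livers were above all others (1.26 ± 0.19 against HFD, edgeR adjusted p = 0.00925). Gadd45a, a stress-induced gene, rose from 1.39 ± 0.363 CPM on ND to 3.87 ± 0.209 on HFD (adjusted p = 0.0231) and 4.64 ± 0.816 on HFD_HDCA (adjusted p = 0.00412). Without HFD 1, 3 of the 20 fell between HFD and ND (Pck1, Cebpb and Klf15), 3 rose between HFD_HDCA and HFD (Pck1, Ccng2 and Pnpla2), and 2 fell between HFD_HDCA and ND (Cebpb and Klf15). Without HFD_HDCA 1, 1 rose in each comparison. Of the 9 fits that left out 1 library, Ccng2 passed in 9 against HFD and in 2 against ND. Gadd45a passed in 5 between HFD and ND and in 9 between HFD_HDCA and ND.

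Of the 8 lists, the genes that insulin is known to induce held the most calls between HFD_HDCA and HFD. The lists were chosen with earlier results of these data known, so this order is a description only. Of 14 tested, 2 rose between HFD and ND (Gm6484 and Pklr), where 0.477% of all genes rose. All 14 estimates were positive, with a median of 0.96. Between HFD_HDCA and HFD, 6 fell (Srebf1, Ppp1r3b, Pklr, Fasn and Gm6484 among them), where 1.73% of all genes fell. All 14 estimates were negative, with a median of -1.73. Between HFD_HDCA and ND 3 fell (Srebf1 and Ppp1r3b among them), where 2.82% of all genes fell, with a median of -0.60 for the list. Without HFD 1 these counts were 4 higher, 9 lower and 3 lower, and without HFD_HDCA 1 they were 2 higher, 4 lower and 3 lower. The first 2 comparisons share the HFD livers. Of the 9 fits that left out 1 library, Pklr passed in 4 and Gm6484 in 7 between HFD and ND. Between HFD_HDCA and HFD, Srebf1 and Ppp1r3b passed in 9, Pklr in 8 and Gm6484 in 5.

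Ppp1r3b, which brings protein phosphatase 1 to glycogen, stood at 294, 307 and 434 CPM on ND, 323, 614 and 571 on HFD, and 91.1, 144 and 124 on HFD_HDCA. The HFD_HDCA livers were below all others, and the log2 fold change was -2.07 ± 0.27 against HFD (edgeR adjusted p = 0.00599) and -1.53 ± 0.27 against ND (adjusted p = 0.0119), while G6pc had differences of -0.35 and -0.06. Gm6484, now named Angptl8, a secreted regulator of lipoprotein lipase, rose from 19.7 ± 8.04 CPM on ND to 109 ± 44.7 on HFD (adjusted p = 0.0232) and was at 32.3 ± 7.83 on HFD_HDCA, lower than on HFD (adjusted p = 0.0388).

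**Figure D5:**
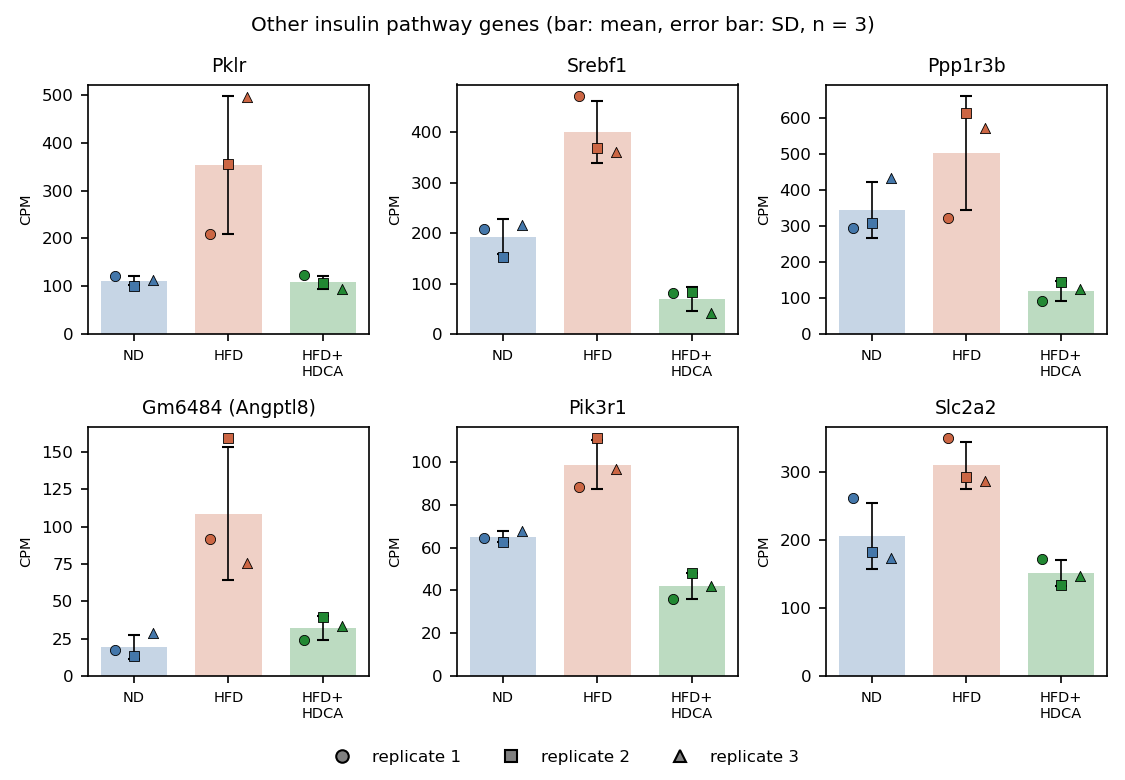
CPM in every library of 6 other insulin pathway genes, with bars for the mean and error bars for the SD (n = 3 per diet). Pklr, Srebf1, Ppp1r3b, Gm6484, Pik3r1 and Slc2a2 were all lower in the 3 HFD_HDCA livers than in the 3 HFD livers. Each of the 6 was among the genes called lower in that comparison, so their common direction follows from the choice. Genes called higher in it, such as Brp44 and Ccng2, are not shown.

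Of 9 genes for IGF-binding proteins and their partners, 0 passed between HFD and ND in edgeR (median -0.06, 1 with an unadjusted p under 0.05), and Igfbp3 was the 1 that fell in both HFD_HDCA comparisons (medians -0.13 and -0.18). Of all genes, 0.953% passed between HFD and ND and 11.5% had an unadjusted p under 0.05 there. In the HFD_HDCA comparisons, 1.73% of all genes fell against HFD and 2.82% against ND. Igfbp3, which carries IGF-1 in blood, fell from 24.5 ± 5.45 CPM on HFD to 12.6 ± 1.23 (-0.96 ± 0.20, edgeR adjusted p = 0.0350), and was lower than on ND by a log2 fold change of -0.98 ± 0.20 (adjusted p = 0.0208). Igfbp2, a hepatocyte paralog of Igfbp1, stood at 519, 489 and 419 CPM on ND, 324, 162 and 159 on HFD, and 449, 374 and 437 on HFD_HDCA. The HFD livers were below all others, and the log2 fold change between HFD and ND was -1.15 ± 0.25 (edgeR adjusted p = 0.0782). DESeq2 called Igfbp2 lower on HFD (adjusted p = 0.000394), and limma on log2 FPKM called 0 of the 9. Igfbp3 passed against HFD in 3 and against ND in 5 of the 9 fits that left out 1 library, and without HFD_HDCA 1 none of the 9 genes of the list passed. Without HFD 1, Igfbp2 fell on HFD (-1.57 ± 0.15, edgeR adjusted p = 0.00185) and was higher on HFD_HDCA than on HFD (1.39 ± 0.15, adjusted p = 0.00256). In each comparison this was the 1 fit that passed of the 9 that left out 1 library.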

How the data were processed

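Total RNA from 9 livers was sequenced, 3 per diet, and samples were grouped by their titles. Per the names of the deposited files, HTSeq gave the authors' counts, which are whole numbers per gene with no normalization. The word antisense in those names was not explained. The authors also deposited Cufflinks gene tables, which per the file headers hold FPKM. TopHat 1.3.2, Cufflinks 2.0.2 and the build mm10 are listed in the submitters' processing notes.

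Reads assigned to no gene made up 27.9 to 36.1% of a file and were left out. A fit in edgeR 4.0.16 (R 4.3.3) took all 9 libraries, the filterByExpr filter (minimum count 10), TMM scaling and robust quasi-likelihood F tests, two-sided, with Benjamini-Hochberg adjustment over 12587 genes. A gene was called at an adjusted p under 0.05. CPM used TMM-scaled library sizes. Standard errors were those implied by F, and 95% intervals used the t distribution. At this depth 3 counts came to 0.146 to 0.177 CPM of reads on genes, counting error only. An exact permutation test of 3 against 3 cannot go below p = 0.1. Fits were tested on simulated data.

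Alternatives were DESeq2 1.42.0, other scalings, no filter, fits of 2 groups, a replicate block, fits without each library or without HFD 1 and HFD_HDCA 1, and limma 3.58.1 on log2(FPKM + 1) or log2(FPKM + 0.1). All 10 members are named. From each pathway list, called genes with the smallest p were named, up to 4 per comparison, or up to 2 where none was called. A few genes that meet it are not reported here. Genes called without HFD 1 were named after their values were seen. Members and lists were chosen with earlier results of these data known. Older symbols were matched through RefSeq synonyms.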

Additional observations from a re-analysis of the deposited data

How the results depend on the processing

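Counts of calls depended on the libraries and tools more than on scaling. Between HFD and ND, the 1 member called became 0 with the replicate block and on each of the 3 FPKM scales, 0 to 3 without 1 library, and 4 without HFD 1 and HFD_HDCA 1. The 120 genes called overall became 362 in DESeq2, 32 to 226 without 1 library and 576 without both. Between HFD_HDCA and HFD, 0 members became 0 to 1 without 1 library and 1 without both. The 428 genes called became 1036 in DESeq2, 134 when only those groups were fitted, 127 to 672 without 1 library and 977 without both. Between HFD_HDCA and ND, 1 member became 2 when only those groups were fitted, 1 to 2 without 1 library and 2 without both (Pcx joining Foxo1). The 815 genes called became 1332 in DESeq2 and 196 to 1213 without 1 library. Of 570 member values under 19 alternatives, 525 kept direction and side of the threshold, 26 reversed, 10 gained and 9 lost the call. The 9 lost are all Foxo1 between HFD and ND.

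Values that reversed were of differences that did not pass. Without HFD 1 and HFD_HDCA 1, log2 fold changes between HFD and ND were -0.06 for G6pc and -0.37 for Ppargc1a, those between HFD_HDCA and HFD 0.06 for G6pc, -0.28 for Fbp1, 0.02 for Foxo1 and 0.22 for Irs1, and that between HFD_HDCA and ND 0.00 for G6pc. On the FPKM scales, Fbp1 between HFD_HDCA and HFD was -0.04 and Insr -0.02, or -0.03 with a pseudocount of 0.1. Leaving out 1 library gave, between HFD and ND, -0.04 to 0.51 for G6pc, -0.35 to 0.29 for Ppargc1a, -0.68 to 0.09 for Irs2 and -0.01 to 0.20 for Insr. Between HFD_HDCA and HFD it gave -0.17 to 0.29 for Fbp1, -0.41 to 0.04 for Pcx, -0.56 to 0.07 for Ppargc1a and -0.20 to 0.08 for Irs1, and between HFD_HDCA and ND -0.10 to 0.00 for G6pc. The cause of these changes was not tested.

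Deviations of same-numbered libraries from their group means had correlations from -0.149 to 0.153 over 9 pairs. Those of different-numbered libraries ran from -0.146 to 0.13. Such correlations over all genes cannot decide whether the numbers pair the livers, since a shared factor may touch few genes. The labels do not say what a number shares. With the replicate block, Foxo1 between HFD and ND had an adjusted p of 0.0569 in edgeR, Ppargc1a had a log2 fold change of -0.02, and no other member's call changed.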
